A study of Homo sapiens with 9 samples.

Results

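G1 cyclins and inhibitors of cyclin-dependent kinases (CDKs) were followed by symbol through 9 RNA-seq libraries of H1299, an established line from a human lung carcinoma of the non-small cell type. The 10 genes, of 58721 in each count table, were the D-type cyclins CCND1 and CCND3, the E-type cyclins CCNE1 and CCNE2, the CIP/KIP inhibitors CDKN1A, CDKN1B and CDKN1C, and the INK4 inhibitors CDKN2B, CDKN2C and CDKN2D. Their identifiers were matched to these symbols in GENCODE release 29, and all 10 passed the filter on low counts. The study had 3 libraries of cells given siCLOCK (small interfering RNA against the circadian factor CLOCK), 3 of cells given 0.1 mM melatonin, and 3 of controls kept in serum free medium. The labels give no non-targeting siRNA, no melatonin vehicle and no treatment time, and the design text calls the 3 samples of a group independent without saying what separates them. They do not say whether the treated cells were in serum free medium too.

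Progress through G1 is driven by cyclin D with CDK4 or CDK6 and then by cyclin E with CDK2, which phosphorylate the retinoblastoma protein and release E2F factors. INK4 proteins bind CDK4 and CDK6 and keep cyclin D off. CIP/KIP proteins bind cyclin-CDK complexes, block CDK2 and can also help assemble cyclin D with its kinase. Cyclin D1 is frequently overproduced in lung carcinomas, and its gene responds to mitogens.

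Counts assigned to genes ranged from 15384539 to 19192962 per library. Levels are given as CPM, counts scaled to library size with TMM factors. A gene was called changed at an adjusted p under 0.05 over all 16441 genes tested with edgeR's quasi-likelihood test. CLOCK stood at 51.5%, 78.7% and 93.8% of the control mean in siCLOCK replicates 1, 2 and 3, so the library labelled siCLOCK replicate 3 went against its label, close to the control range of 94.9% to 109%. The log2 fold change of CLOCK was -0.42 (30.4 CPM ± 8.72 in siCLOCK and 40.7 CPM ± 3.26 in control, SD, n = 3) with an adjusted p of 0.340, and -0.62 with an adjusted p of 0.0179 when that library was left out. It did not pass on leaving out any other siCLOCK or control library (adjusted p up to 0.648). The library labelled siCLOCK replicate 3 also shared with the 3 melatonin libraries a proportion of unmapped reads of 2.24% to 2.34%, against 1.22% to 1.36% in the other 5 libraries. Melatonin and this technical set cannot be told apart except through that library. A term for the set therefore takes in whatever else parted that library from the other siCLOCK libraries, its CLOCK level included. With such a term, the set and that CLOCK level cannot be told apart. The filament genes KRT8, KRT18 and VIM were abundant in every group, and all 3 were lower in melatonin than in control (VIM at 1503 CPM ± 32.7 and 1853 CPM ± 150, SD, n = 3, log2 fold change -0.30, adjusted p = 0.00251). Of the markers of other cell types, HBB had no counts, PTPRC and SFTPC at most 1 count in a library, PECAM1 1.97 to 4.08 CPM and COL1A1 0.852 to 2.38 CPM, with COL1A1 lower in melatonin than in control (-0.96, adjusted p = 0.00437). The proliferation markers MKI67 and TOP2A were lower in melatonin too, at -0.71 and -0.72 (adjusted p = 4.02e-07 and 3.96e-07). In siCLOCK against control they were at -0.16 and -0.22, with no overlap of the groups, and did not pass (adjusted p = 0.464 and 0.269). Their part in the values below was not tested. In bulk samples fewer cells of a kind and less RNA per cell cannot be told apart.

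Promoter windows of RefSeq (build GRCh38.p14), the 250 bases before an annotated start, were available for 7 of the 10 genes, as 11 windows. They were searched on both strands for the canonical E-box CACGTG, the element that CLOCK binds with ARNTL, and for the E2F elements TTTGGCGC and TTTCCCGC. CDKN2C was the only gene of the 7 with a match: the E-box stood in 2 of its 3 windows, 220 and 69 bases before the start. Of 35116 promoters in the table, 6.34% held the E-box and 1.93% an E2F element. These shares count single windows, and CDKN2C had 3. CDKN2C and CDKN2D were both lower in melatonin, as described below, but CDKN2D had no match. CDKN1C, also lower in melatonin, had no window, nor had CCND1 and CCNE2. The log2 fold change of CLOCK itself in melatonin against control was -0.01 (adjusted p = 0.984). The 2 CDKN2C windows with the E-box, on the plus strand of chromosome 1, are printed 5′ to 3′. The other CDKN2C window, without a match, is not printed. For comparison, the window of CDKN2D on the minus strand of chromosome 19 is printed too. Capitals mark the E-box. A match describes letters and not binding.
CDKN2C chr1:50960495-50960744: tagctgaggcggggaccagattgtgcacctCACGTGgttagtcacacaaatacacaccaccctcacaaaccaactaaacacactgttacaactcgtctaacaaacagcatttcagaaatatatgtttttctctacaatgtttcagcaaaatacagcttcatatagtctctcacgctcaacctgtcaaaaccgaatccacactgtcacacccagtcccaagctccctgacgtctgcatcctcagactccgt
CDKN2C chr1:50969995-50970244: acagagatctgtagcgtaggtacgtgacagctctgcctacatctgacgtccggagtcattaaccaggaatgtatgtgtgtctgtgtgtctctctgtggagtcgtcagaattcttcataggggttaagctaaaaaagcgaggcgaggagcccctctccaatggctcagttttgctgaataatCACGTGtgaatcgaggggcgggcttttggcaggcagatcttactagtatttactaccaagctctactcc
CDKN2D chr19:10568980-10569229: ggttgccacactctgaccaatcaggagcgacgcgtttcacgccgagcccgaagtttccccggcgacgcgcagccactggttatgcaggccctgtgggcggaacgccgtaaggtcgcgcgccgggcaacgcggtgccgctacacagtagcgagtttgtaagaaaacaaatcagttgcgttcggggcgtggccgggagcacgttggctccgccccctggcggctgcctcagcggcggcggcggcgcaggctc

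Across the 10 genes, none was called in siCLOCK against control, where 0.122% of all genes tested were called (20 of 16441, with 0.0547% higher and 0.0669% lower, and 1355 at an unadjusted p under 0.05). In melatonin against control 3 of 10 fell, CDKN1C, CDKN2C and CDKN2D, and none rose. By class these were 1 of 3 CIP/KIP and 2 of 3 INK4 genes, with 0 of 2 D-type and 0 of 2 E-type cyclins. These counts are too small to set the classes apart. Among all genes, 23.1% were called in that comparison, 11.0% higher and 12.1% lower, and 3 of 10 is near that background. Melatonin against siCLOCK gave 3 of 10 lower, CCND1, CDKN1A and CDKN2D, beside 17.5% of all genes called in either direction, 7.43% higher and 10.1% lower. The comparisons share libraries with each other and are not independent.

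**Figure D1:**
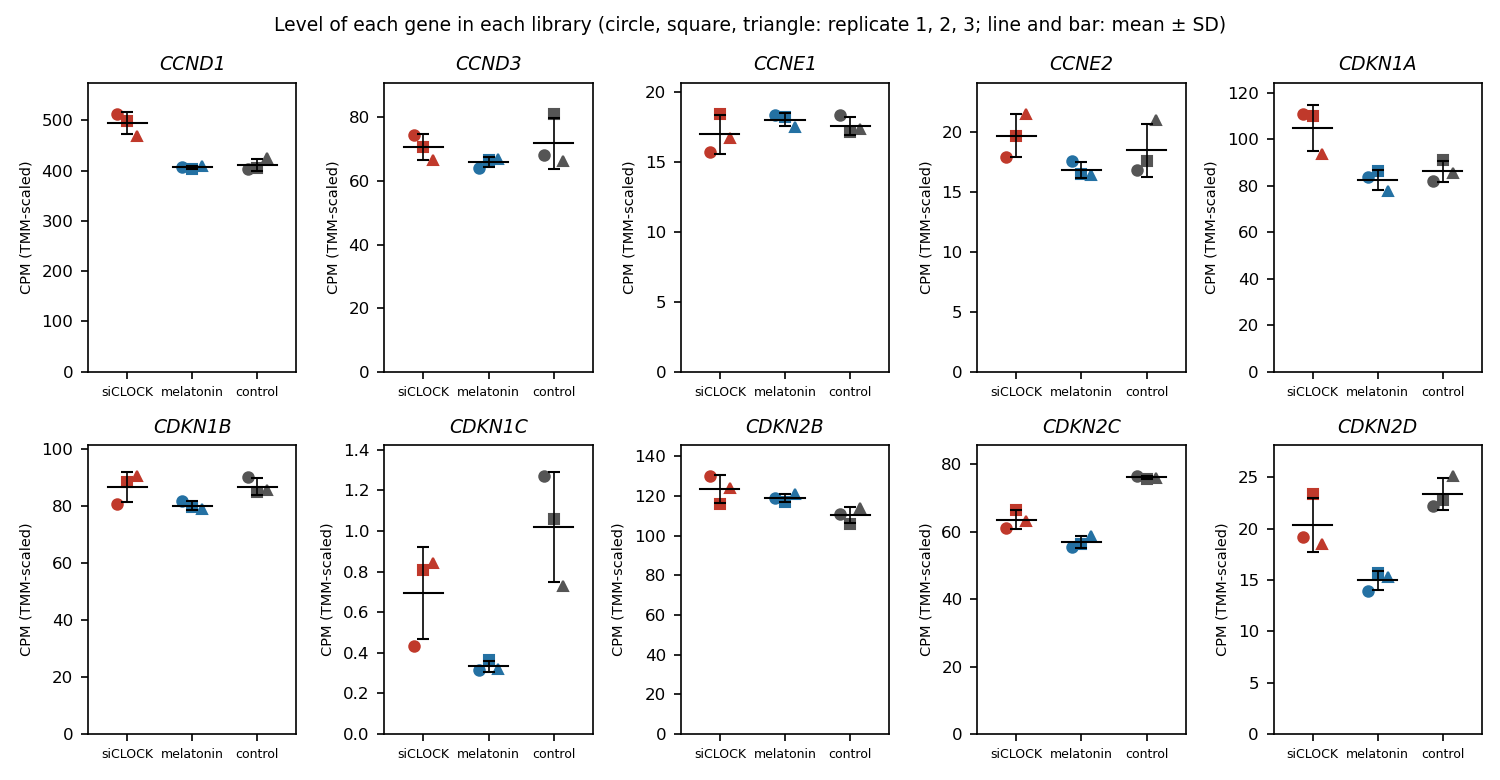
Level of each of the 10 genes in every library, in TMM-scaled CPM on an axis from 0, with siCLOCK and melatonin to the left of control; symbols give the replicate number, and the line and bar give the mean and SD of 3 libraries. CCND1 and CDKN1A are highest in siCLOCK, whereas CDKN2C and CDKN2D are lowest in melatonin.

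Per kilobase of exon, the order of levels was similar in the 3 groups. CCND1 led with 112 CPM per kilobase in siCLOCK, 92.3 in melatonin and 93.5 in control. In controls CDKN1A (34.4) and CDKN1B (32.7) followed with overlapping libraries, then CDKN2B (27.3), CDKN2C (22.9), CCND3 (18.2) and CDKN2D (15.5). CCNE1 (8.45) and CCNE2 (5.38) were low, and CDKN1C was close to undetected at 0.525. These values divide by all exon bases, including bases shared with genes on the other strand, where reads went uncounted. CCNE2 and CCND1 are therefore set too low per kilobase, and the order of CCNE1 and CCNE2 is not settled. The per-length ratios of CCND1 given below share this limit in every library alike. CDKN2C and CCND3 overlapped in melatonin (16.7 to 17.7 and 16.3 to 17.0) and in siCLOCK (18.5 to 20.1 and 16.9 to 18.9). In control CDKN2C (22.9 to 23.1) lay above CCND3 (16.8 to 20.6). Counts regardless of strand leave out reads over bases shared with a gene on the other strand. CCNE2 shares 47.6% of its exon bases with INTS8 and AC087752.4 on the other strand, and the count regardless of strand was 25.2% to 29.4% of the sum of its strand-specific counts. The libraries did not separate strands, so that sum can also hold reads of the overlapping genes. It is not a total for CCNE2, and the percentage is not the share of its own reads kept. CCND1 shares 11.3% of its exon bases with LTO1, and its count was 78.5% to 81.3% of the same kind of sum. For the other 8 genes it was at least 99.7%.

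Cyclin D1 stood higher in each siCLOCK library than in any control library. CCND1 (ENSG00000110092.3, chromosome 11, 69641087 to 69654474, plus strand, GRCh38), the mitogen-responsive partner of CDK4 and CDK6, had 513, 499 and 470 CPM in siCLOCK replicates 1 to 3. Melatonin libraries gave 407, 403 and 410 CPM and controls 403, 406 and 426 CPM. The siCLOCK values did not overlap those of either other group, and the melatonin values lay within the control range. The log2 fold change in siCLOCK against control was 0.26 (SE 0.06, 95% interval 0.14 to 0.38), which missed the threshold over all genes (adjusted p = 0.0990). It passed at 0.29 on leaving out the library labelled siCLOCK replicate 3 (adjusted p = 0.0238), and with DESeq2 at 0.26 (adjusted p = 0.00302). On leaving out any other siCLOCK or control library it did not pass (adjusted p up to 0.424). Melatonin against control gave -0.02 (95% interval -0.14 to 0.10, adjusted p = 0.862). Between the treatments CCND1 was lower in melatonin than in siCLOCK by a log2 fold change of -0.28 (SE 0.06, adjusted p = 0.00290). With a term for the technical set that last value was -0.21 and did not pass (adjusted p = 0.108).

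CCND3, also a D-type cyclin (ENSG00000112576.12, chromosome 6, 41934933 to 42050357, minus strand), had 74.6, 70.8 and 66.6 CPM in siCLOCK, 64.2, 66.6 and 67.0 CPM in melatonin and 68.2, 81.1 and 66.4 CPM in control. Its groups overlapped, and control replicate 2 was the highest library of all. The log2 fold changes were -0.03 (95% interval -0.19 to 0.14) in siCLOCK against control and -0.12 (95% interval -0.29 to 0.04) in melatonin against control, neither passing (adjusted p = 0.970 and 0.265). Per length, the level of CCND1 was 6.15 to 6.32 times that of CCND3 in the siCLOCK libraries, 5.41 to 5.68 times in the melatonin libraries and 4.48 to 5.75 times in the controls.

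The E-type cyclins, which activate CDK2 at the entry to S phase, were not called in any comparison. CCNE1 (ENSG00000105173.13, chromosome 19, 29811898 to 29824308, plus strand) had 15.7, 18.4 and 16.7 CPM in siCLOCK, 18.3, 18.2 and 17.5 CPM in melatonin and 18.3, 17.1 and 17.3 CPM in control. These ranges overlapped throughout. The log2 fold change in melatonin against control was 0.04 with a 95% interval of -0.15 to 0.22 (adjusted p = 0.818), and in siCLOCK it was -0.05 with an interval of -0.23 to 0.13 (adjusted p = 0.944). CCNE2 (ENSG00000175305.17, chromosome 8, 94879770 to 94896678, minus strand) had 17.9, 19.7 and 21.5 CPM in siCLOCK, 17.6, 16.5 and 16.4 CPM in melatonin and 16.8, 17.6 and 21.0 CPM in control. All melatonin libraries lay below all siCLOCK libraries, but that difference of -0.23 (95% interval -0.44 to -0.02) did not pass (adjusted p = 0.119). In counts of either strand alone the value was -0.07. Those counts can hold reads of the genes that overlap CCNE2, so they cannot check its difference. Melatonin against control gave -0.14 for CCNE2 (95% interval -0.35 to 0.07, adjusted p = 0.358). The proliferation marker MKI67, beside these cyclins, had 277 to 291 CPM in melatonin, against 455 to 493 CPM in control.

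**Figure D2:**
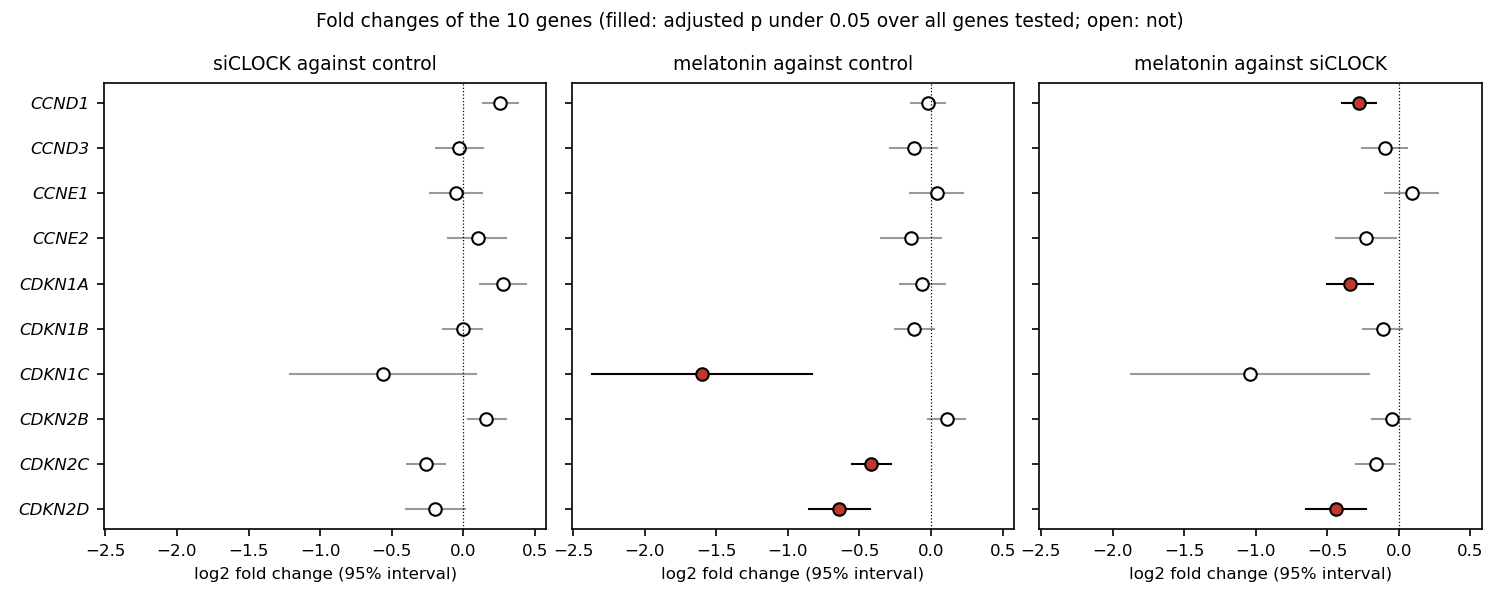
Log2 fold changes of the 10 genes with 95% intervals in the 3 comparisons, as points and lines on a shared axis; filled points passed an adjusted p under 0.05. No point is filled in siCLOCK against control, and CDKN1C, with the widest intervals, has a value of -1.60 in melatonin against control.

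Among CIP/KIP inhibitors, CDKN1A stood highest in siCLOCK, CDKN1B was nearly level, and CDKN1C was low everywhere and lowest in melatonin. CDKN1A (ENSG00000124762.13, chromosome 6, 36676460 to 36687339, plus strand) encodes p21, an inhibitor of CDK2 that is induced by many stresses. It had 111, 110 and 93.6 CPM in siCLOCK, 83.8, 86.3 and 78.0 CPM in melatonin and 82.0, 91.3 and 85.4 CPM in control. Each siCLOCK library exceeded every library of both other groups, with the library labelled siCLOCK replicate 3 closest to them. The log2 fold change in siCLOCK against control was 0.28 (SE 0.07, 95% interval 0.12 to 0.44) and did not pass (adjusted p = 0.222). It passed at 0.35 on leaving out the library labelled siCLOCK replicate 3 (adjusted p = 0.0229). On leaving out any other siCLOCK or control library it did not pass (adjusted p up to 0.618). Melatonin against control gave -0.06 (95% interval -0.22 to 0.10, adjusted p = 0.608). Against siCLOCK, melatonin was lower by a log2 fold change of -0.34 (SE 0.07, adjusted p = 0.00425), a call that ended with the set term (-0.18, adjusted p = 0.273).

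The ratio of CCND1 to CDKN1A ranged from 2.53 to 2.99 across the 9 libraries. Per length, CCND1 was 2.64, 2.59 and 2.86 times CDKN1A in siCLOCK, 2.77, 2.66 and 2.99 times in melatonin and 2.80, 2.53 and 2.84 times in control. The 3 groups overlapped in this ratio, although both genes stood higher in siCLOCK. Relative to the control mean, CCND1 was at 125%, 121% and 114% and CDKN1A at 129%, 127% and 109% in siCLOCK replicates 1, 2 and 3.

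CDKN1B (ENSG00000111276.10, chromosome 12, 12715058 to 12722371, plus strand), the gene of p27, a protein largely regulated by its degradation, had 80.7, 88.7 and 90.6 CPM in siCLOCK, 82.0, 79.7 and 79.0 CPM in melatonin and 90.4, 84.9 and 85.6 CPM in control. The melatonin libraries lay just below the controls without overlap. The log2 fold change of -0.12 (95% interval -0.25 to 0.02) did not pass (adjusted p = 0.213). In siCLOCK against control the value was -0.00 with a 95% interval of -0.14 to 0.13 (adjusted p = 0.994).

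CDKN1C (ENSG00000129757.13, chromosome 11, 2883213 to 2885773, minus strand), an imprinted gene that encodes p57, had only 8, 15 and 16 raw counts in siCLOCK, 5, 7 and 6 in melatonin and 24, 20 and 13 in control. In CPM these were 0.433, 0.806 and 0.840 in siCLOCK, 0.315, 0.362 and 0.320 in melatonin and 1.27, 1.06 and 0.729 in control. Every melatonin library was below every other library. The fall in melatonin against control had a log2 fold change of -1.60 (SE 0.37, 95% interval -2.37 to -0.83, adjusted p = 0.00389). It did not pass with the set term (-2.03, adjusted p = 0.0649). In siCLOCK against control the value was -0.56 (95% interval -1.21 to 0.09, adjusted p = 0.698).

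The INK4 genes parted under melatonin: CDKN2C and CDKN2D fell, while CDKN2B stood slightly above control. CDKN2C (ENSG00000123080.10, chromosome 1, 50960745 to 50974633, plus strand) encodes p18 and is a known E2F target. It had 61.2, 66.6 and 63.1 CPM in siCLOCK, 55.5, 56.5 and 58.8 CPM in melatonin and 76.5, 75.8 and 76.1 CPM in control. The 3 groups did not overlap at all, with melatonin lowest and control highest. The fall in melatonin against control had a log2 fold change of -0.42 (SE 0.06, 95% interval -0.55 to -0.28, adjusted p = 1.36e-04), and with the set term it was -0.40 and still passed (adjusted p = 0.0437). In siCLOCK against control the value was -0.26 (SE 0.06, 95% interval -0.39 to -0.13), which did not pass (adjusted p = 0.159) except with DESeq2 (-0.26, adjusted p = 0.0318). Melatonin against siCLOCK gave -0.16 (95% interval -0.30 to -0.03, adjusted p = 0.0945).

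CDKN2D (ENSG00000129355.6, chromosome 19, 10566462 to 10569059, minus strand), the gene of p19, whose level varies over the cell cycle, had 19.2, 23.4 and 18.5 CPM in siCLOCK, 13.9, 15.7 and 15.3 CPM in melatonin and 22.2, 22.8 and 25.1 CPM in control. Melatonin libraries stood at 59.4%, 67.3% and 65.7% of the control mean and below every other library, whereas siCLOCK replicate 2 lay inside the control range. The log2 fold change was -0.64 (SE 0.10, 95% interval -0.85 to -0.43, adjusted p = 1.77e-04) in melatonin against control and -0.44 (SE 0.10, adjusted p = 0.00580) in melatonin against siCLOCK. With the set term these were -0.43 (adjusted p = 0.147) and -0.30 (adjusted p = 0.203). The value in siCLOCK against control was -0.20 (95% interval -0.40 to 0.01, adjusted p = 0.634).

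CDKN2B (ENSG00000147883.10, chromosome 9, 22002903 to 22009363, minus strand), a TGF-beta target that encodes p15, had 130, 116 and 124 CPM in siCLOCK, 119, 117 and 121 CPM in melatonin and 111, 106 and 114 CPM in control. Both treated groups lay above the controls without overlap, but neither difference passed. The log2 fold changes were 0.16 (95% interval 0.03 to 0.30, adjusted p = 0.459) in siCLOCK and 0.11 (95% interval -0.02 to 0.24, adjusted p = 0.231) in melatonin. Per length, CDKN2B was 1.84 to 2.53 times CDKN2D in siCLOCK libraries, 2.79 to 3.19 times in melatonin libraries and 1.69 to 1.86 times in controls. The melatonin and control ranges of this ratio did not overlap, which follows from the separate values of CDKN2B and CDKN2D. CDKN2B was 1.43 to 1.75 times CDKN2C in siCLOCK libraries, 1.69 to 1.76 times in melatonin libraries and 1.15 to 1.23 times in controls. In that ratio both treated groups overlapped each other and lay above the controls, which again follows from the separate values of the genes. CDKN2A, the fourth INK4 gene and neighbour of CDKN2B, named here for that reason, was lower in melatonin than in control (172 CPM ± 6.08 and 201 CPM ± 1.86, SD, n = 3, log2 fold change -0.22, adjusted p = 0.0213).

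**Figure D3:**
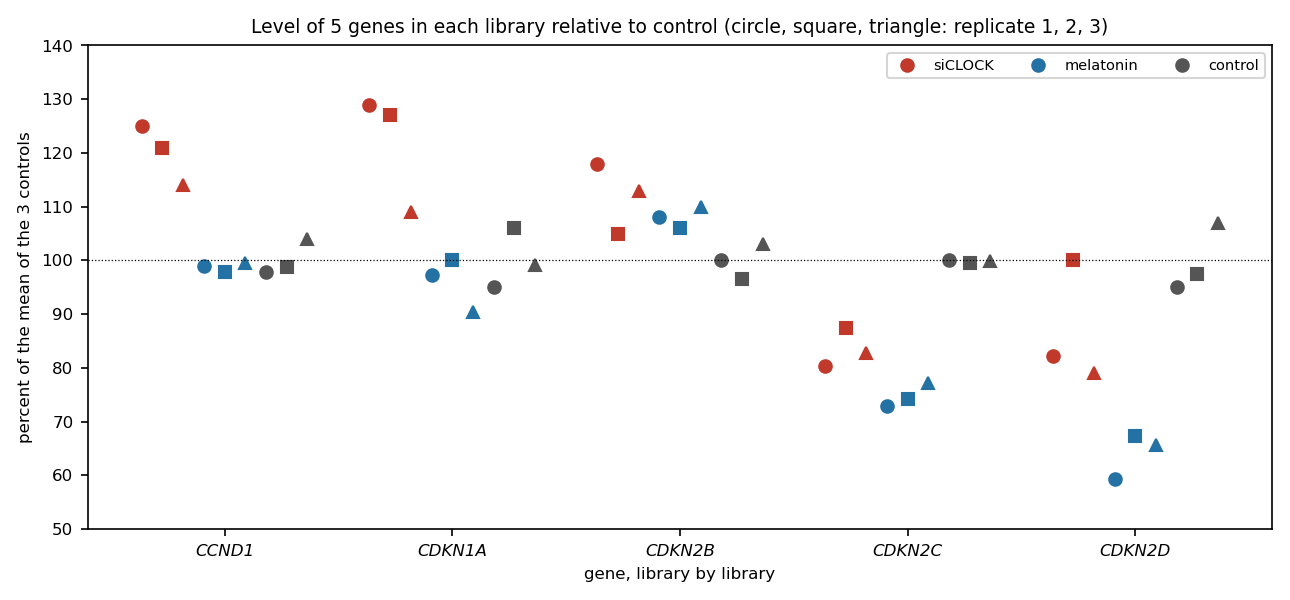
Level of CCND1, CDKN1A and the 3 INK4 genes in each library as a percent of the control mean, on an axis that does not start at 0; each point is 1 library and the dotted line is the control mean. CDKN2D lies between 59.4% and 67.3% in melatonin, and CCND1 between 114% and 125% in siCLOCK.

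Library by library, 4 of 10 genes had siCLOCK and control ranges that did not overlap, beside 10.8% of all genes tested. CCND1, CDKN1A and CDKN2B were the higher ones (5.75% of all genes) and CDKN2C the lower one (5.06%). For melatonin and control there were 5 of 10 beside 43.4% of all genes, CDKN2B higher (21.9%) and CDKN1B, CDKN1C, CDKN2C and CDKN2D lower (21.4%). For melatonin and siCLOCK there were 6 of 10 beside 34.2%, all lower in melatonin, where 16.8% of all genes were higher and 17.4% lower. Within the technical set that holds all melatonin libraries, the only other library was the one labelled siCLOCK replicate 3. All 3 melatonin libraries were below it for CCND1 (403 to 410 CPM, against 470 CPM), CDKN1A (78.0 to 86.3 CPM, against 93.6 CPM), CDKN1C (0.315 to 0.362 CPM, against 0.840 CPM), CDKN2C (55.5 to 58.8 CPM, against 63.1 CPM) and CDKN2D (13.9 to 15.7 CPM, against 18.5 CPM). They were also below it for CCNE2 (16.4 to 17.6 CPM, against 21.5 CPM), CDKN1B (79.0 to 82.0 CPM, against 90.6 CPM) and CDKN2B (117 to 121 CPM, against 124 CPM), although CDKN2B stood above control in melatonin. For CCNE1 they were above it (17.5 to 18.3 CPM, against 16.7 CPM), and for CCND3 they lay on both sides of it. Within the other set, siCLOCK replicates 1 and 2 stood above the controls for CCND1, CDKN1A and CDKN2B and below them for CDKN2C. The share of all genes with such orderings within a set was not computed. These orderings describe single libraries and are not a result about the 10 genes. The part of the technical set in the melatonin values was not tested beyond the set term. That term rests on that 1 library and takes in its CLOCK level too.

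Other genes of G1 control, a list of 47 arranged by role, were all tested. None was called in siCLOCK against control, and the median log2 fold change of the list was 0.01, beside 0.00 for all genes. In melatonin against control 3 rose and 16 fell, with a median of -0.10 beside 0.01 for all genes. Of all genes tested, 11.0% were higher and 12.1% lower, the background for each role group below. With the set term 3 of the list were higher and 8 lower, beside 283 and 487 of all 16441 genes.

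Among kinases and their activators 4 of 8 fell, beside 12.1% of all genes. CDK2, the partner of cyclin E, had a log2 fold change of -0.53 (32.9 CPM ± 1.20 in melatonin and 47.4 CPM ± 3.47 in control, SD, n = 3, adjusted p = 6.04e-05), and CDK6, a partner of cyclin D, one of -0.41 (adjusted p = 5.55e-04). CDK4, also a partner of cyclin D and chosen after its values were seen, had 62.2 CPM ± 4.52 in melatonin and 74.7 CPM ± 6.21 in control (SD, n = 3), a log2 fold change of -0.26 that did not pass (adjusted p = 0.0747). Among 6 other cyclins, inhibitors and CDK-binding proteins 4 fell, with CDKN3, a phosphatase that acts on CDKs, at -0.70 (adjusted p = 6.19e-06) and the S-phase cyclin CCNA2 at -0.57 (adjusted p = 3.80e-05). Of 7 pocket proteins and partners 2 fell, the transcription factor E2F1 at -0.43 (adjusted p = 5.10e-04) and RBL1, which encodes p107, at -0.39 (adjusted p = 0.00420). The values for E2F1 with the set term were -0.29 and an adjusted p of 0.211.

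Among ubiquitin ligase genes 2 of 11 fell and none rose, near the 12.1% of all genes that were lower. These were DTL, the receptor that directs p21 to degradation, at -0.60 (adjusted p = 2.48e-05) and SKP2, which recognises p27, at -0.29 (34.2 CPM ± 0.846 in melatonin and 41.9 CPM ± 3.66 in control, SD, n = 3, adjusted p = 0.0365). The call of SKP2 ended with the set term, at -0.20 and an adjusted p of 0.563, and on leaving out any 1 of 5 libraries, at -0.23 and an adjusted p of 0.173 for control replicate 2. Of 15 upstream transcription factors 3 rose and 4 fell, beside 11.0% and 12.1% of all genes. ID2 (1.29, adjusted p = 8.06e-09) and ID3 (1.30, adjusted p = 1.44e-07), which hold E proteins off DNA, had the smallest p-values of that group.

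**Figure D4:**
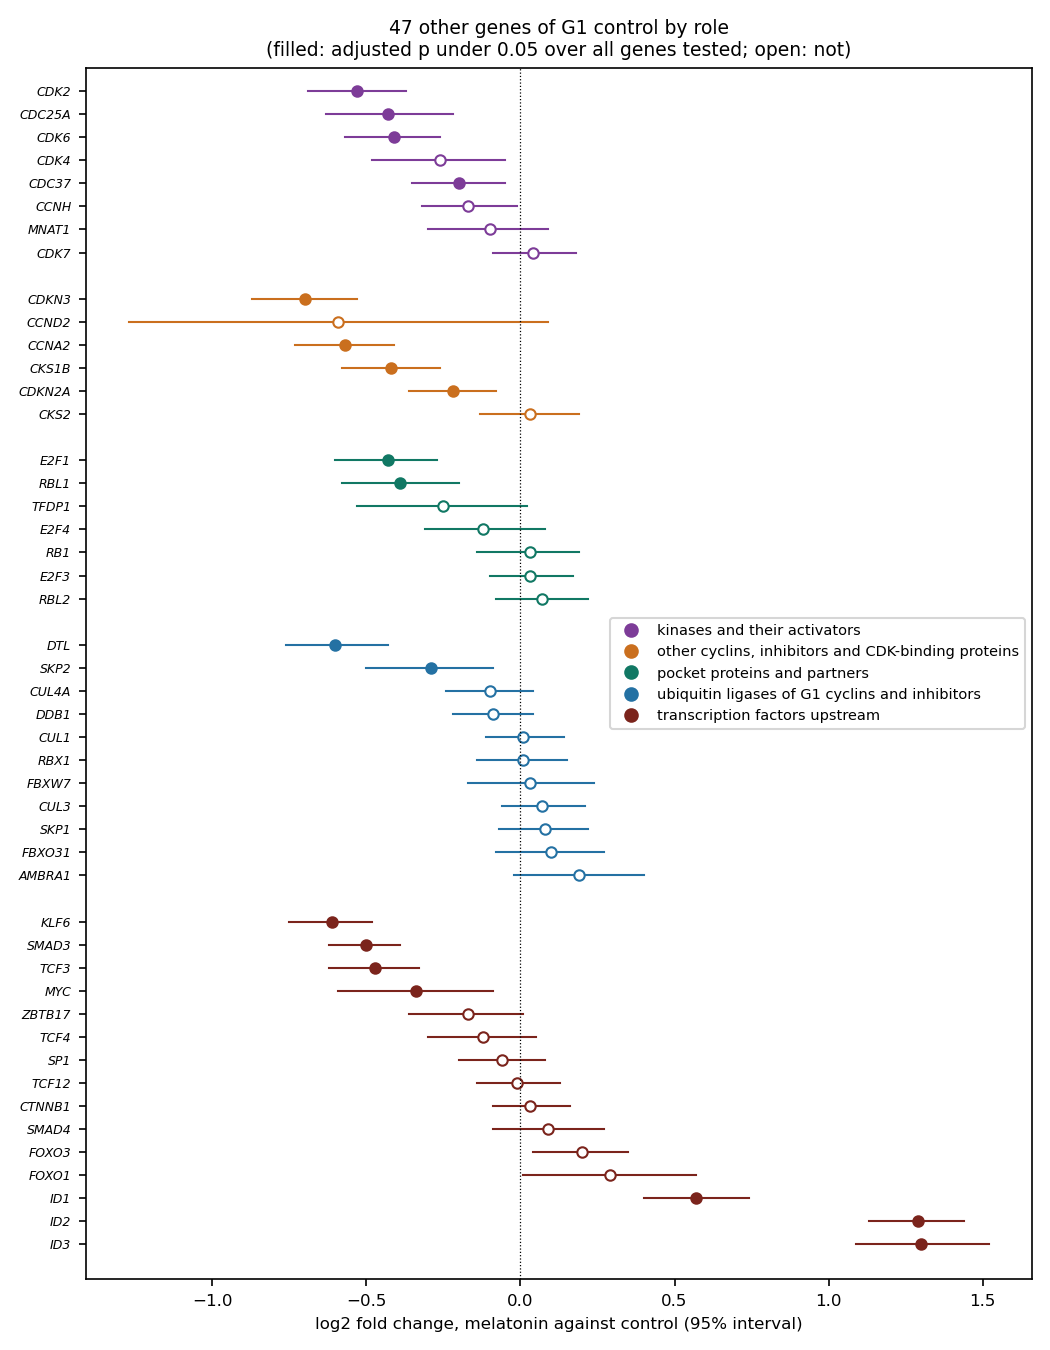
Log2 fold change in melatonin against control, with 95% intervals, of the 47 other G1 control genes in 5 role groups shown by colour; filled points passed an adjusted p under 0.05. In the kinase group 4 of 8 lie lower and pass, while of the ubiquitin ligase group only DTL and SKP2 do.

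Likeness of pattern was measured as the root mean square difference of log2 CPM relative to the control mean over 9 libraries, among 10526 protein-coding genes with a mean of at least 5 CPM. For CDKN1C, the member with the lowest value in melatonin, the nearest were TGFBI (0.257), STRA6 (0.282) and DOCK2 (0.292), with log2 fold changes in melatonin against control of -1.21, -1.20 and -1.12. For CDKN2B, the member with the highest value, the nearest were PLPP5 (0.0359), DIS3L2 (0.0384) and EIF3H (0.0399), at 0.15, 0.10 and 0.10, none of which passed (adjusted p = 0.188, 0.378 and 0.251). The distances for CDKN1C were the larger ones, beside its low counts.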

How the data were processed

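RNA of 9 H1299 libraries was read as paired ends on a BGIseq500 instrument, per the labels' protocols. The deposited tables hold raw read counts per gene made with STAR 2.7.9a on GRCh38 (hg38), per the submitters' processing notes. The annotation is not given in the sources used here. Symbols, coordinates and exon lengths came from GENCODE release 29, to which all 58721 identifiers could be matched. Strand totals had ratios of 1.01 to 1.05, so counts regardless of strand were used. Reads that overlap genes on both strands go uncounted there.

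Counts were filtered with filterByExpr, which left 16441 genes, scaled with TMM and fitted with edgeR 4.0.16 in R 4.3.3 as 1 quasi-likelihood model over 9 libraries. Tests were two-sided, with Benjamini-Hochberg adjustment over all genes tested. SE is the log2 fold change divided by the square root of F. The spread behind each p-value is that between these samples and may be technical. The procedure was tested on simulated data with 100 genes changed 1.5-fold or 2-fold. At 1.5-fold it recovered 68% in siCLOCK against control and 67% in melatonin against control, with 8 and 9 false calls. Smaller changes were not simulated.

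The members, lists and alternatives were chosen with earlier results of these data known. Besides the members, 2 genes with the smallest p in melatonin per role group were named, with CLOCK, markers of cell type and proliferation, and the nearest patterns. A gene of the naming rule is not reported here and was left out of the list. The promoter search was chosen after the values were seen. Alternatives were RLE scaling, DESeq2 1.42.0, no filter, a replicate block, only the 6 libraries compared, counts of strand 1, a technical set term divided at 1.8% unmapped reads, and each library left out. Strand 2 counts, and melatonin against control without siCLOCK replicate 3, were added after seeing the data.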

Additional observations from a re-analysis of the deposited data

How the results depend on the processing

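In melatonin against control, 3 of the 10 genes were lower under RLE scaling, DESeq2, no filter, only the 6 libraries compared and each left-out library. Only 2 were called in counts of strand 1 or strand 2, where CDKN1C was not among the genes tested, and 1 with the technical set term. In melatonin against siCLOCK 3 were lower under all these alternatives, strand counts included (3 to 4 with a library left out, the 4 with CDKN1C and without siCLOCK replicate 1), but 0 with the set term. In siCLOCK against control, 1 gene was higher and 1 lower with DESeq2. The number higher was 2 with no filter (CCND1, adjusted p = 0.0267, and CDKN1A, adjusted p = 0.0441), 2 with the set term, and 0 to 2 with a library left out, where 2 came without siCLOCK replicate 3. By its construction the set term fits that library exactly, so siCLOCK against control then rests on the other 2. Causes were not tested.

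Over all genes, siCLOCK against control gave 9 higher and 11 lower. DESeq2 gave 48 and 21, no filter 152 and 59, the set term 73 and 43, and the 6 libraries alone 3 and 4. Strand 1 counts gave 3 lower and strand 2 counts 7 lower. With a library left out, the range was 1 to 69 higher and 1 to 43 lower. Melatonin against control gave 283 higher and 487 lower with the set term, in place of 1803 and 1987, and 1061 to 2071 higher with a library left out, the most without siCLOCK replicate 3. Melatonin against siCLOCK gave 328 and 633 with the set term, in place of 1221 and 1655, and 619 to 1699 higher and 1031 to 2159 lower with a library left out. Of the 47 listed genes, 1 was higher in siCLOCK with no filter, 8 were lower in melatonin against control with the set term in place of 16, and 10 were lower against siCLOCK in place of 16.

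Signs turned only for genes that were not called. In siCLOCK against control, CCND3 was 0.02 with the set term and -0.08 to 0.07 with a library left out, CCNE2 was -0.02 in strand 2 counts, and CDKN1B was 0.01 in strand 1 counts and -0.04 to 0.04 with a library left out. The strand counts of CCNE2 can hold reads of the genes that overlap it. In melatonin against control with the set term, CCND1 was 0.09, CCND3 0.00 and CDKN1A 0.18, and CCND1 was -0.04 to 0.01 with a library left out. In strand 2 counts, CCNE1 was -0.12 and CDKN1B 0.01 in melatonin against control, and -0.08 and 0.04 against siCLOCK.

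The replicate numbers did not pair the libraries: deviations of same-numbered libraries had correlations of -0.09 to 0.06. With the replicate block, 3 of the 10 genes were lower in melatonin against control and 3 against siCLOCK, 0 were called in siCLOCK against control, and over all genes 4 were higher and 8 lower there. Depth limits CDKN1C, with 5 to 24 counts per library.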
